A study of Danio rerio with 12 samples.

Results

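The genes examined here encode translation initiation factors (eIFs) and elongation factors (eEFs) of the zebrafish. They were chosen by a rule on names, with earlier results of these data known. The rule took every gene whose symbol begins with eif or eef followed by a digit. It left out kinases, binding proteins and modifying enzymes that carry a factor's name (12 genes). This gave 69 of the 31465 genes in the deposited table, 56 initiation and 13 elongation factor genes. Of the 69, 68 had enough counts to be tested, and eif4e1b did not.

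RNA was sequenced from wild-type embryos of strain AB and from embryos of a strain given only as Mycn mutant, at 48 and 72 hours post fertilization (hpf), with 3 libraries in each of the 4 groups. Embryos of all groups were raised in Danieau buffer, and the labels name no other treatment. The series asks how the transcriptome differs between these genotypes, and the protein of mycn is one of the Myc transcription factors. The sources used here give neither the allele nor the zygosity, the clutches or the number of embryos pooled in a library. P-values therefore set a difference between groups only against the spread among these samples, and that spread may be technical.

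Library totals ran from 14793715 to 19732340 counts. mycn RNA, which checks the labels, was higher and not lower in the mutant libraries: 74.0 ± 14.9 CPM (counts scaled to a library size corrected by TMM, edgeR's trimmed mean of M-values) in wild type against 222 ± 25.2 at 48 hpf, and 77.2 ± 2.25 against 153 ± 9.86 at 72 hpf (SD, n = 3 each). This goes against loss of the transcript, and an RNA level does not show whether functional protein was made, so these libraries are called mutant-labelled throughout and every direction rests on the label. The label calls the tissue embryonic cells, and markers of muscle, red blood cells, liver, lens, neurons and pigment cells were all detected in every group. In such whole-embryo RNA, fewer cells of a type and less RNA per cell cannot be told apart.

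Initiation factors bring the small ribosomal subunit and the initiator methionyl-tRNA to the start codon of a messenger RNA. eIF2 carries the initiator tRNA and is recharged by the exchange factor eIF2B, eIF3 is the large scaffold on the small subunit, and the eIF4 proteins bind the cap and unwind the leader. Elongation factors then act in a cycle: eEF1A delivers each aminoacyl-tRNA, the eEF1B subunits recharge eEF1A, and eEF2 moves the ribosome along. In mammals the messages of eEF1A, eEF2, several eIF3 subunits and the ribosomal proteins are known to share a pyrimidine tract at their start, through which their translation is controlled together, and genes of protein synthesis are known targets of Myc proteins.

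Summed over all factor genes, the share of counts was lower in mutant-labelled libraries at both ages. The factor genes' counts made up 2.82 ± 0.0513% of all counts in wild type and 2.31 ± 0.0766% in mutant-labelled libraries at 48 hpf, and 2.17 ± 0.0486% and 1.92 ± 0.0633% at 72 hpf (SD, n = 3 each). The genotypes did not overlap at either age, with the highest mutant-labelled library at 2.39% against a lowest wild-type library of 2.77% at 48 hpf, and at 1.99% against 2.12% at 72 hpf. A single gene, eef1a1l1, held 1.11% of all counts in wild type at 48 hpf, and the other 68 genes together gave the same order, with 1.71 ± 0.0450% and 1.52 ± 0.0301% at 48 hpf and 1.499 ± 0.0278% and 1.36 ± 0.0376% at 72 hpf. The roles did not all go this way. The eEF1, eEF2 and eIF3 genes went from 1.45, 0.467 and 0.368% to 1.06, 0.367 and 0.316% at 48 hpf, without overlap in any of them. The eIF4 genes went from 0.215% to 0.244% and the start codon genes from 0.0830% to 0.0900%, with overlapping libraries. These shares are counts, in which long messages weigh more, and no test was made of a sum over the genes.

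**Figure D1:**
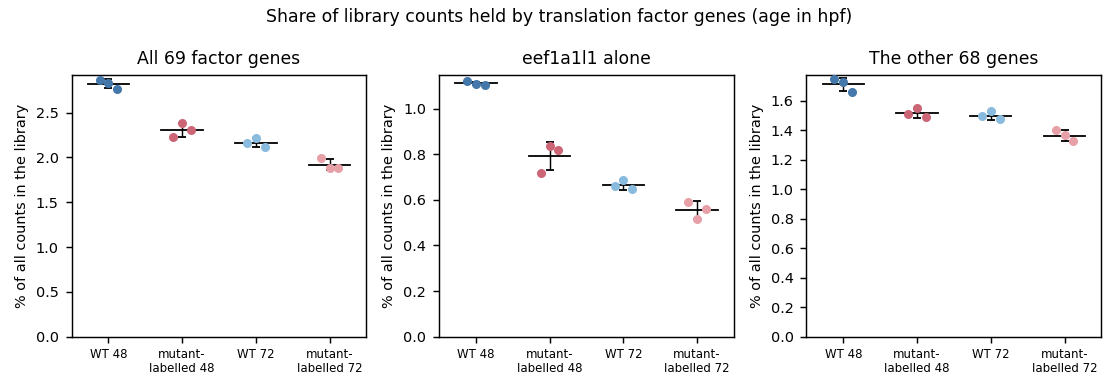
Percent of all counts in a library that fell on the 69 translation factor genes, on eef1a1l1 alone and on the other 68 genes (y axes, from 0), for the 4 groups; points are libraries, horizontal lines are means and bars are SD (n = 3). In all 3 panels the mutant-labelled libraries lie below the wild-type libraries of the same age without overlap, as in the panel of all genes, where the means are 2.82% and 2.31% at 48 hpf and 2.17% and 1.92% at 72 hpf.

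At 48 hpf, 8 of the 68 tested factor genes were lower and 2 were higher in mutant-labelled libraries. The genes lower at an adjusted p under 0.05 (quasi-likelihood test of edgeR, adjusted over all 21068 tested genes) were 4 eEF1 genes (eef1a1l1, eef1g, eef1da and eef1db), 3 eIF3 genes (eif3ea, eif3eb and eif3g) and eif2s3, and those higher were eif4a1a and eif2b5. The lower genes were 11.8% of the factor genes against 2.0% of all tested genes, and the higher genes 2.94% against 1.04%. The 3 mutant-labelled libraries lay below all 3 wild-type libraries in 23 factor genes (33.8%, against 9.08% of all tested genes) and above them in 6 (8.82%, against 7.69%). The median log2 fold change was -0.05 over the 68 genes and -0.0026 over all tested genes. By role it was -0.29 for eIF3, -0.39 for eEF1 and -0.40 for eEF2, and between -0.08 and 0.04 for the other 6 roles.

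The number of calls depended on the libraries and the fit. Without mutant-labelled replicate 1 of 48 hpf it was 2 (eif2s3 and eif3eb). Without replicate 2 it was 4 (eef1a1l1, eef1db, eef1g and eif2s3), and without replicate 3 it was 5 (eef1a1l1, eef1db, eif2s3, eif4a1a and eif4e1c). It was 6 when wild-type replicate 1 of 48 hpf was left out (eef1a1l1, eef1db, eif2s3, eif3eb, eif2d and eif3hb). Leaving out wild-type replicate 2 of 72 hpf, which only enters the shared estimate of spread, gave 5 (eef1a1l1, eef1db, eef1g, eif2s3 and eif4a1a). A fit of the 6 libraries of 48 hpf alone called 0 factor genes, and it called 0.0771% of all genes higher and 0.303% lower. Before adjustment 6 factor genes were higher and 21 lower in it (p under 0.05). The share of all genes at that unadjusted level was not computed for this fit, so these counts have no background to be read against. The model of 12 libraries used 1 estimate of spread per gene for all 4 groups. Replicate pairs differed by more than counting noise. Their chi-square per degree of freedom was 7.37 to 49.7 at 48 hpf and 4.14 to 8.21 at 72 hpf. A shared estimate can be too small for the more spread groups and too large for the others. DESeq2 called 3 higher and 16 lower, including all 10 above, against 1.88% and 3.17% of its genes. Scaling by library totals, under which the median log2 fold change of all genes was 0.09, called 3 higher and 4 lower. For library totals and for fits that left out a library, the shares of all genes called are not given here. Fewer factor genes called in those fits cannot be told from fewer calls among all genes.

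**Figure D2:**
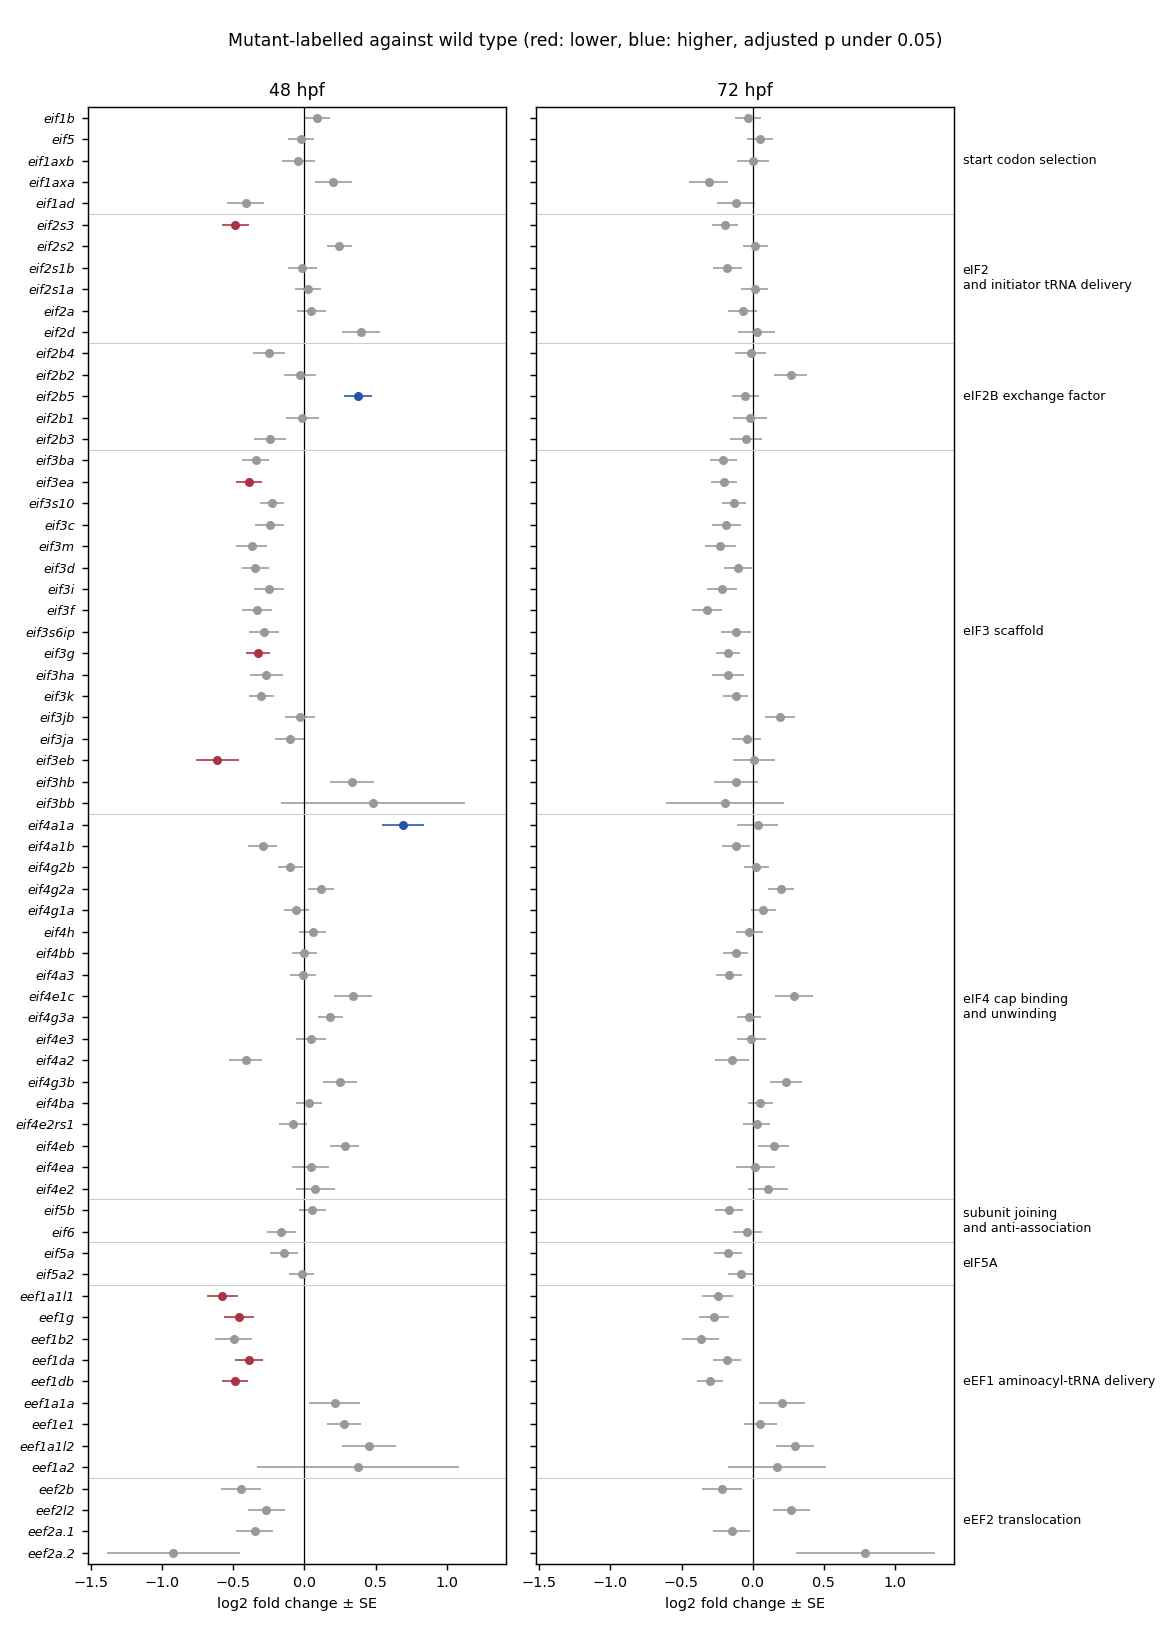
Log2 fold change of mutant-labelled against wild-type libraries ± SE (x axes, the same scale in both panels) for the 68 tested translation factor genes, grouped by role, at 48 hpf and at 72 hpf (n = 3 libraries a group); red and blue mark genes lower and higher at an adjusted p under 0.05. Most eIF3 genes lie left of 0 at both ages (15 of 17 at each), the eIF4 genes lie on both sides, and no gene is coloured at 72 hpf.

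Among the factors that select the start codon, no gene passed the test at 48 hpf and the median of the 5 log2 fold changes was -0.02. eif1b, whose protein is of the eIF1 type that guards against wrong start codons, stood at 479 ± 24.4 CPM in wild type and 509 ± 22.2 in mutant-labelled libraries. eif5, which makes eIF2 hydrolyse its GTP at the start codon, stood at 248 ± 12.6 and 244 ± 26.4 CPM. The pair encoding eIF1A had log2 fold changes of 0.20 (eif1axa, SE 0.13) and -0.04 (eif1axb, SE 0.11). eif1ad, put in this role by its symbol only, had the lowest value of the role, -0.41 (SE 0.13, adjusted p = 0.104), and its libraries did not overlap. Whether its protein acts in start codon selection was not examined.

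Within eIF2, the transcript of the gamma subunit, eif2s3, was the 1 that passed the edgeR test with TMM scaling. Its wild-type libraries at 48 hpf held 503, 529 and 453 CPM and its mutant-labelled libraries 356, 371 and 332 CPM. The groups were separated by a wide gap, and the log2 fold change was -0.49 (SE 0.09, adjusted p = 0.0115). The gamma subunit is the one that binds GTP and the initiator tRNA. This call was kept in 18 of 19 alternatives, more than any other called gene, and was lost only in the fit of 6 libraries.

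The other subunits of the same trimer did not fall with it. eif2s2 (beta) held 236, 216 and 206 CPM in wild type and 276, 250 and 254 CPM in mutant-labelled libraries, without overlap and in the opposite direction (log2 fold change 0.24, SE 0.09, adjusted p = 0.147). It was called higher by DESeq2 and with library totals (0.33, adjusted p = 0.0474). The genes of the alpha subunit, which stress kinases phosphorylate, had log2 fold changes of -0.01 (eif2s1b, SE 0.10) and 0.02 (eif2s1a, SE 0.09). eif2a and eif2d encode separate proteins that can also bring initiator tRNA, and they had values of 0.05 (SE 0.10) and 0.40 (SE 0.13, adjusted p = 0.120).

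Of the 5 genes of eIF2B, eif2b5, which encodes the catalytic epsilon subunit, was higher at 48 hpf. Wild-type libraries held 21.3, 23.7 and 21.6 CPM and mutant-labelled libraries 29.1, 29.7 and 27.6 CPM, with a log2 fold change of 0.37 (SE 0.10, adjusted p = 0.0494). The groups did not overlap, but the call lay at the threshold and was kept in 4 of 19 alternatives. The genes of the other 4 subunits had log2 fold changes between -0.25 (eif2b4, SE 0.11) and -0.02 (eif2b1, SE 0.12), and none passed the test. eif2b4, the eIF2B gene with most counts, stood at 49.2 ± 6.31 and 41.4 ± 4.07 CPM.

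Most eIF3 genes had lower levels in mutant-labelled libraries. At 48 hpf 15 of the 17 had a negative log2 fold change, the median was -0.29, and in 10 of them (58.8%, against 9.08% of all tested genes) every mutant-labelled library was below every wild-type library. With library totals as the scale 14 were negative and the median was -0.20. Those that passed the test were eif3ea and eif3eb, a pair of genes for subunit e, and eif3g, for the subunit that binds RNA near the mRNA channel. The exceptions in sign were eif3hb and eif3bb, the copies with fewer counts in their pairs.

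eif3ea held 617, 609 and 568 CPM in wild type at 48 hpf and 459, 473 and 440 CPM in mutant-labelled libraries. The spread within each group was small beside the gap (log2 fold change -0.39, SE 0.09, adjusted p = 0.0320). eif3eb, the copy with few counts, held 16.0, 20.3 and 22.0 CPM against 14.7, 11.3 and 11.98 CPM, a log2 fold change of -0.61 (SE 0.15, adjusted p = 0.0374). The copy eif3ea supplied 96.8% of the pair's counts in wild type and 97.3% in mutant-labelled libraries, so nearly all counts of the pair were those of eif3ea. eif3g held 265, 265 and 258 CPM against 210, 224 and 193 CPM, again without overlap (log2 fold change -0.33, SE 0.08, adjusted p = 0.0471). Of these calls, eif3ea was kept in 12, eif3eb in 9 and eif3g in 2 of 19 alternatives.

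The remaining eIF3 genes missed the threshold, many with differences of similar size. eif3ba, the scaffold gene with most counts over all libraries, stood at 566 ± 28.3 CPM in wild type and 446 ± 24.8 in mutant-labelled libraries (log2 fold change -0.34, SE 0.09, adjusted p = 0.0622), and its libraries did not overlap. eif3d, whose protein can itself bind caps of some messages in human cells, had -0.35 (SE 0.10, adjusted p = 0.0683). eif3k, eif3m and eif3f had -0.30, -0.37 and -0.33 (SE 0.09, 0.11 and 0.11), also without overlap, and eif3c and eif3i had -0.25 each (SE 0.10) with overlapping libraries. The nearest to 0 were eif3ja and eif3jb, at -0.10 and -0.03 (SE 0.10 each). Their protein, eIF3j, is held only loosely by the complex.

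Among the 18 tested eIF4 genes, the RNA helicase gene eif4a1a was higher at 48 hpf and no other gene passed the test. Its wild-type libraries held 412, 521 and 408 CPM and its mutant-labelled libraries 889, 731 and 548 CPM. The groups did not overlap, although the highest wild-type and the lowest mutant-labelled library lay close together and the mutant-labelled libraries were widely spread (log2 fold change 0.69, SE 0.15, adjusted p = 0.0192). The call was kept in 15 of 19 alternatives. It was lost without mutant-labelled replicate 1 (log2 fold change 0.52), without mutant-labelled replicate 2 (0.69), without wild-type replicate 1 (0.64) and in the fit of 6 libraries (0.69).

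Its paralog eif4a1b differed the other way, with 723, 775 and 649 CPM in wild type and 575, 623 and 555 CPM in mutant-labelled libraries (log2 fold change -0.29, SE 0.10, adjusted p = 0.137). The libraries of this copy did not overlap either. The share of the pair's counts that fell on eif4a1a was 38.4 ± 1.97% in wild type and 54.8 ± 5.57% in mutant-labelled libraries at 48 hpf (SD, n = 3 each; two-sided exact permutation p = 0.1, the smallest that 3 against 3 allows). At 72 hpf the share was 51.9 ± 1.08% and 54.5 ± 1.49% (exact permutation p = 0.2). The share was tested for this pair only, and eif4a1a had already been called at 48 hpf in the same libraries. The p-value at 48 hpf therefore adds no separate support. By these means, wild-type embryos at 48 hpf were the only group in which eif4a1b held most of the counts. In single libraries, eif4a1a also held less than eif4a1b in mutant-labelled replicate 3 of 48 hpf (49.7%), and most in replicate 1 (60.7%). Reads shared between these close copies could have been split by the counting, which the sources used here do not describe.

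**Figure D3:**
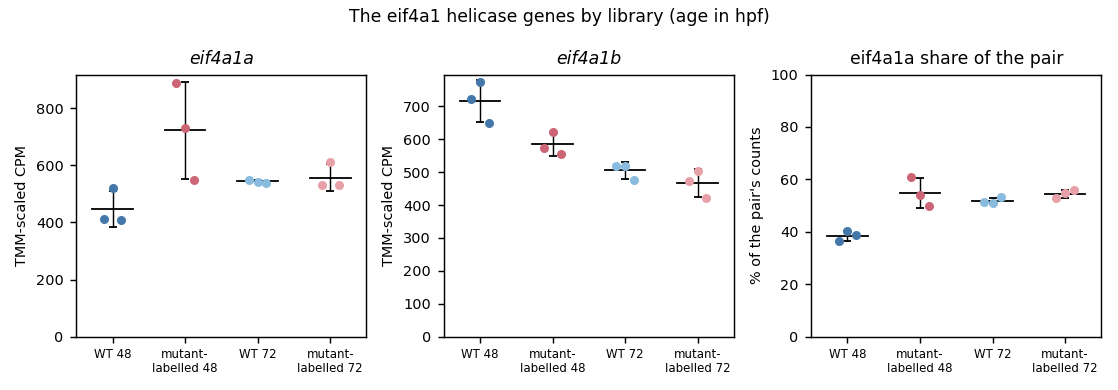
TMM-scaled CPM of eif4a1a and of eif4a1b, and the percent of their summed counts that fell on eif4a1a (y axes, from 0), by group; points are libraries, horizontal lines are means and bars are SD (n = 3). The mean share of eif4a1a is 38.4% in wild type at 48 hpf and lies between 51.9% and 54.8% in the other 3 groups.

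No other gene of the cap-binding machinery passed the test at 48 hpf. eif4a2, another helicase gene, had a log2 fold change of -0.41 (SE 0.12, adjusted p = 0.0700). The cap-binding genes eif4ea, eif4eb and eif4e1c had 0.05, 0.28 and 0.34 (SE 0.13, 0.10 and 0.13, adjusted p = 0.909, 0.157 and 0.181). Scaffold genes ran from -0.10 (eif4g2b, SE 0.09) to 0.25 (eif4g3b, SE 0.12). eif4e1b, which encodes an eIF4E form known from oocytes in zebrafish, had 21 counts in all, with 6 in wild type and 2 in mutant-labelled libraries at 48 hpf, a ratio of 0.352 (95% counting interval 0.0347 to 1.97, covering counting error only).

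Neither subunit joining nor eIF5A showed a called gene. eif5b, the GTPase that joins the large subunit, stood at 64.4 ± 6.18 and 66.9 ± 1.72 CPM at 48 hpf. eif6, which keeps the subunits apart, stood at 50.4 ± 0.570 and 45.0 ± 5.18 CPM, without overlap (adjusted p = 0.439). eif5a and eif5a2, for the hypusine-bearing factor that eases stalled peptide bond formation, had log2 fold changes of -0.14 (SE 0.10) and -0.02 (SE 0.09).

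The eEF1 genes lay in separate sets. All genes for the eEF1B exchange complex, and eef1a1l1 among the genes for eEF1A, lay lower in mutant-labelled libraries at 48 hpf without overlap. The eEF1A genes with fewer counts and eef1e1, whose protein belongs to the aminoacyl-tRNA synthetase complex, had positive values that did not pass the test. Their log2 fold changes were 0.21 (eef1a1a, SE 0.18), 0.45 (eef1a1l2, SE 0.19), 0.38 (eef1a2, SE 0.71, with 8 and 10 counts) and 0.28 (eef1e1, SE 0.12).

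eef1a1l1, the eEF1A gene that supplied most eEF1A counts, held 13290, 13108 and 12853 CPM in wild type at 48 hpf. Its mutant-labelled libraries held 7929, 9433 and 8942 CPM. Every mutant-labelled library was thus well under the wild-type range, with a log2 fold change of -0.58 (SE 0.11, adjusted p = 0.00899). The call was lost without mutant-labelled replicate 1 (log2 fold change -0.51) and in the fit of 6 libraries, and kept in the other 17 alternatives. Counts of the eEF1A genes could be split between near-identical copies.

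Of the eEF1B genes 3 passed the test. eef1g (gamma) held 2682, 2529 and 2615 CPM against 1886, 2070 and 1727 CPM, a log2 fold change of -0.46 (SE 0.11, adjusted p = 0.0288). The delta genes also fell. eef1db held 266, 261 and 291 CPM against 188, 204 and 190 CPM (-0.49, SE 0.09, adjusted p = 0.00944), and eef1da 400, 407 and 385 CPM against 296, 327 and 285 CPM (-0.39, SE 0.10, adjusted p = 0.0421). In the names of the RefSeq annotation of assembly GRCz12tu, which is not the build of these counts, eef1db is the only called factor gene on the chromosome of mycn, among 5 factor genes there. The gene for the catalytic beta subunit, eef1b2, lay just outside the threshold, with 670, 644 and 657 CPM against 477, 489 and 430 CPM (-0.50, SE 0.13, adjusted p = 0.0502). It was called lower in 6 alternatives, DESeq2 and limma-voom among them.

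eef1db was kept in 17, eef1g in 15 and eef1da in 9 of 19 alternatives. Between the delta copies, eef1da held 59.3 ± 2.13% of the pair's counts in wild type and 60.9 ± 0.781% in mutant-labelled libraries, a difference smaller than the SD in wild type.

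All 4 eEF2 genes had negative values at 48 hpf and none passed the edgeR test. eef2b, which held most of their counts, had 5360, 5131 and 4841 CPM in wild type and 3340, 4028 and 3869 CPM in mutant-labelled libraries. The groups did not overlap, and the log2 fold change was -0.45 (SE 0.14, adjusted p = 0.103). DESeq2 called this gene lower. eef2l2 had -0.27 (SE 0.13) and eef2a.1 -0.35 (SE 0.13). eef2a.2 had only 75 and 38 counts (ratio 0.535, 95% counting interval 0.352 to 0.800) with overlapping libraries.

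**Figure D4:**
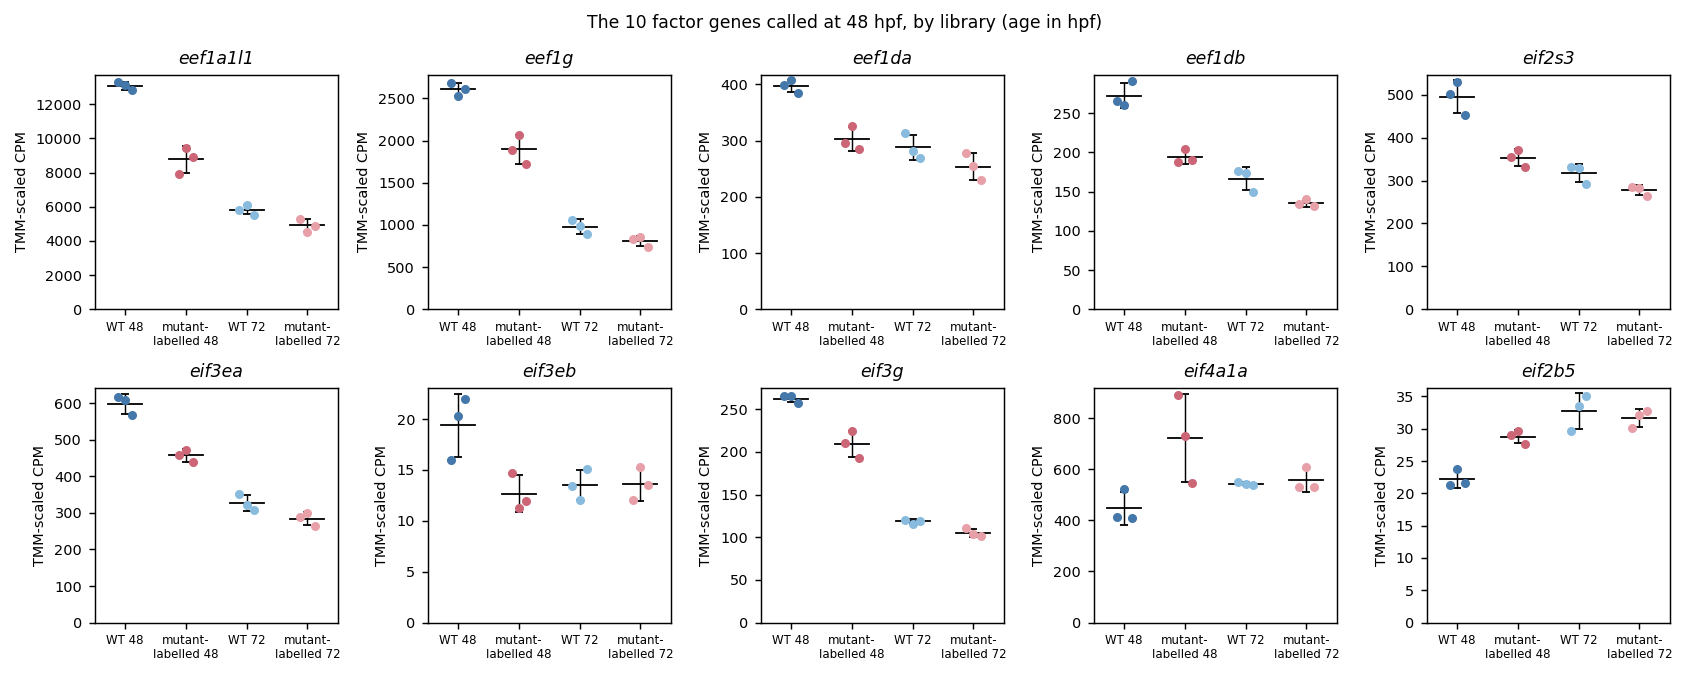
TMM-scaled CPM (y axes, from 0) of the 10 translation factor genes called at 48 hpf, by group; points are libraries, horizontal lines are means and bars are SD (n = 3). At 48 hpf the groups do not overlap in any panel, with 8 genes lower and eif4a1a and eif2b5 higher in mutant-labelled libraries, and at 72 hpf the differences are smaller. The genes were picked by the 48 hpf test, so the panels do not test whether the effect changed with age.

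At 72 hpf no factor gene passed the test, and 0.133% of all tested genes were called higher and 0.422% lower. edgeR, DESeq2 and limma-voom each called 0 of the 68, and at an unadjusted p under 0.05 edgeR had 4 higher and 8 lower, where 3.67% and 4.08% of all genes were so. The libraries did not overlap in 13 factor genes lower (19.1%, against 9.14%) and 8 higher (11.8%, against 11%). The eIF3 genes again had negative values in 15 of 17, with a median of -0.17 beside 0.01 for all tested genes. Of the 4 eEF2 genes 2 were negative and 2 positive, with a median of 0.06, and 2 lay higher without overlap. The share of counts on the eEF2 genes overlapped, at 0.248 to 0.299% in wild type and 0.206 to 0.296% in mutant-labelled libraries. A fit of the 6 libraries of 72 hpf alone called 1 factor gene higher and 2 lower, where it called 1.64% of all genes higher and 2.30% lower.

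The genes called by that fit, in number near the shares of all genes it called, were eef1db, eif3f and eif4e1c. eef1db had 177, 174 and 149 CPM in wild type and 134, 140 and 131 CPM in mutant-labelled libraries, and -0.30 (SE 0.09, adjusted p = 0.248) in the model of 12 libraries. eif3f had 206, 198 and 178 CPM against 152, 171 and 143 CPM, and -0.32 (SE 0.11, adjusted p = 0.337). eif4e1c, the cap-binding gene, was higher, with 53.9, 52.1 and 53.7 CPM against 65.9, 65.2 and 64.2 CPM, and 0.29 (SE 0.13, adjusted p = 0.627). All of these were separated without overlap. eef1a1l1, with 5840, 6076 and 5538 CPM against 5293, 4529 and 4889 CPM, kept its direction at a smaller size (-0.25, SE 0.11, adjusted p = 0.586).

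The change of the genotype effect from 48 to 72 hpf was tested directly, and no factor gene passed (0.285% of all tested genes were called higher and 0.185% lower). DESeq2 and limma-voom called 0 as well. At an unadjusted p under 0.05 the effect was higher at 72 hpf for 5 factor genes and lower for 3, against 5.79% and 4.59% of all genes. The smallest adjusted p belonged to eif4a1a, whose log2 fold change was 0.69 at 48 hpf and 0.04 at 72 hpf (difference -0.66, SE 0.21, adjusted p = 0.236), and which alone passed when mutant-labelled 48 hpf replicate 3 was left out (difference -0.85). For eef1a1l1 the difference was 0.33 (SE 0.15, adjusted p = 0.462), for eif3eb 0.62 (SE 0.21, adjusted p = 0.269) and for eif2b5 -0.42 (SE 0.14, adjusted p = 0.249). The calls at 48 hpf are therefore not shown to be absent at 72 hpf.

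Many more genes were called between ages than between genotypes, among the factor genes as among all tested genes. From 48 to 72 hpf in wild type 11 factor genes rose and 37 fell, 16.2% and 54.4% of the 68, where 35.4% of all tested genes rose and 35.4% fell. In mutant-labelled libraries 13 rose and 34 fell (19.1% and 50%), where 35.7% and 34.4% of all genes did so. The median log2 fold changes were -0.31 and -0.25, beside -0.02 and -0.0037 over all tested genes. With library totals as the scale, the median of all genes moved to 0.41 and 0.32. The split became 28 higher and 18 lower in wild type and 26 and 19 in mutant-labelled libraries, and the median of the factor genes turned to 0.12 and 0.08. The shares of all genes called with library totals are not given here, so this split has no background to be read against. Relative to the median of all genes, the factor genes were lower, at -0.30 in wild type and -0.24 in mutant-labelled libraries. A change of scale moves all genes nearly alike, so the same values under either scale are no check of this. The 2 age comparisons share no library.

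In wild type, genes of the elongation cycle and of eIF3 made up the 6 largest falls. In mutant-labelled libraries eif4eb and eif1axa stood among them as well. eef1g fell from 2609 ± 76.5 to 978 ± 88.2 CPM in wild type and from 1894 ± 171 to 811 ± 62.1 in mutant-labelled libraries (log2 fold changes -1.42 and -1.22, adjusted p = 7.02e-09 and 4.10e-08). eef2b fell by 1.27 and 1.04, eef1a1l1 by 1.17 and 0.84, eif3m by 1.36 and 1.21 and eif3g by 1.15 and 0.99 on the log2 scale. The start codon gene eif1axa fell by 0.58 and 1.09. eef2a.2 also fell in wild type, by 1.39 (adjusted p = 0.0158), from 75 to 33 counts and with overlapping libraries. With library totals as the scale, eef1g, eef2b, eef1a1l1, eif3m and eif3g were called lower in both genotypes and eif1axa in the mutant-labelled libraries.

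The eEF1A genes changed in opposite directions as the embryos aged. While eef1a1l1 fell, eef1a1a rose from 14.8 ± 5.29 to 63.6 ± 1.23 CPM in wild type and from 17.2 ± 2.73 to 73.5 ± 3.31 CPM in mutant-labelled libraries (log2 fold change 2.09 in each, adjusted p = 2.24e-08 and 2.22e-08). eef1a1l2 rose by 2.75 and 2.59 on the log2 scale. eef1a2, whose mammalian counterpart is the form of mature neurons and muscle, went from 8 to 110 counts in wild type and from 10 to 123 in mutant-labelled libraries (log2 fold changes 3.51 and 3.30). eef1a1l1 still held nearly all counts of its pair with eef1a1a, of which eef1a1a supplied 0.114 ± 0.0423% at 48 hpf and 1.08 ± 0.0421% at 72 hpf in wild type, and 0.199 ± 0.0472% and 1.48 ± 0.148% in mutant-labelled libraries.

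Of the 18 tested eIF4 genes, 4 rose and 7 fell with age in each genotype (22.2% and 38.9%). Of all tested genes 35.4% rose and 35.4% fell in wild type, and 35.7% and 34.4% in mutant-labelled libraries, so the falls were near the share of all genes. eif4g1a rose from 142 ± 12.3 to 246 ± 11.2 CPM in wild type and from 137 ± 2.81 to 260 ± 8.84 in mutant-labelled libraries (log2 fold changes 0.79 and 0.93), and eif4g3a rose by 1.29 and 1.08. Cap-binding genes that fell were eif4ea by 0.77 and 0.80, eif4eb by 1.01 and 1.14 and eif4e2, a cap-binding repressor, by 0.99 and 0.96. All of these passed the test in both genotypes with TMM factors and with library totals. Other genes of these kinds differed: the scaffold gene eif4g2a fell by 0.26 in wild type (adjusted p = 0.0173), a sign that turned with library totals (0.17), and had -0.18 (adjusted p = 0.0922) in mutant-labelled libraries. eif4e1c had -0.21 and -0.26 (adjusted p = 0.165 and 0.0863) and eif4e2rs1 0.08 and 0.20 (adjusted p = 0.442 and 0.0811). With library totals eif4e1c turned to 0.22 and 0.06, and eif4e2rs1 was called higher in both genotypes (0.52 in each). eif3bb, the subunit b copy with few counts, rose from 15 to 106 counts in wild type and from 20 to 92 in mutant-labelled libraries (log2 fold changes 2.59 and 1.91). Among eIF2B genes eif2b2 fell by 1.05 and 0.75 in the 2 genotypes, while eif2b5 rose by 0.56 in wild type (adjusted p = 7.25e-05) and had 0.14 (SE 0.10, adjusted p = 0.210) in mutant-labelled libraries. With library totals eif2b5 was called higher in both, at 0.99 and 0.46 (adjusted p = 1.81e-07 and 6.05e-04).

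**Figure D5:**
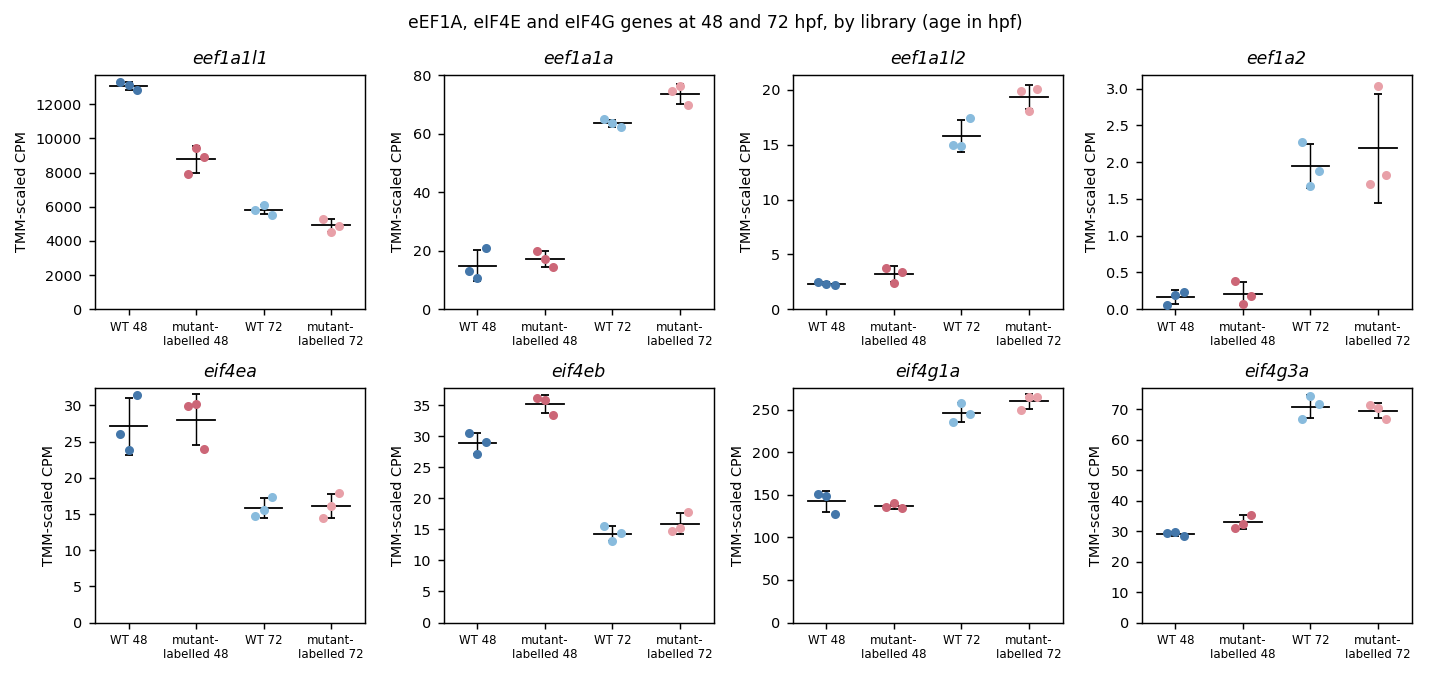
TMM-scaled CPM (y axes, from 0) of 4 eEF1A genes, 2 eIF4E genes and 2 eIF4G genes by group; points are libraries, horizontal lines are means and bars are SD (n = 3). eef1a1l1, eif4ea and eif4eb are lower at 72 than at 48 hpf in both genotypes, and eef1a1a, eef1a1l2, eef1a2, eif4g1a and eif4g3a are higher, while eef1a1l1 also differs by genotype at 48 hpf.

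Other genes of the pathway were described from lists of known members. Among the 39 regulators found, such as eIF2 kinases, eIF4E-binding proteins and the eEF2 kinase, 1 was lower and 0 were higher at 48 hpf, a share near the 2.0% of all tested genes that were lower. The lower one was tpt1, whose protein binds eEF1A, with 3236 ± 101 CPM in wild type and 2302 ± 236 in mutant-labelled libraries (log2 fold change -0.49, SE 0.12, adjusted p = 0.0317). Of 10 tested termination and poly(A)-binding genes 1 was higher, beside 1.04% of all tested genes. This gene, pabpc1b, stood at 104 ± 32.3 and 161 ± 10.8 CPM (0.63, SE 0.16, adjusted p = 0.0433). None of the 10 genes for enzymes that modify factors and none of the 10 mitochondrial factor genes was called. Of 79 tested cytosolic ribosomal protein genes, 20 (25.3%, against 2.0% of all genes) were lower and 0 higher at 48 hpf, with a median of -0.35, and 2 were lower at 72 hpf, with a median of -0.32.

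Some markers of cell types were called at 48 hpf as well, where 2.0% of all tested genes were lower and 1.04% higher. Of 13 pigment cell markers 2 were lower, with summed levels of 2818 to 3435 CPM in wild type and 2153 to 2519 CPM in mutant-labelled libraries, and of 14 hepatocyte markers 3 were lower, with sums of 17586 to 30611 and 17311 to 23977 CPM. Of 11 erythroid markers 1 was lower, with sums of 15434 to 21177 and 12692 to 13679 CPM. The erythroid list itself was split, with 6 negative and 5 positive values and a median log2 fold change of -0.0069. In the other direction 3 of 16 neuron markers were higher, with sums of 943 to 1136 and 1066 to 1412 CPM, as were 2 of 14 lens markers, with sums of 1140 to 2245 and 1958 to 3116 CPM. Of 15 tested exocrine pancreas markers 1 was lower, at sums of 16.8 to 21.3 and 13.7 to 18.2 CPM, with up to 7 of 16 at 0. Of 17 proliferation markers and 18 muscle markers 0 were called, and outside the exocrine list at most 1 marker of a list was at 0 in any library. The summed hepatocyte, neuron and lens markers overlapped between the genotypes, and the pigment and erythroid sums did not. At 48 hpf values were positive in 16 of 16 neuron and 14 of 14 lens markers, and negative in 12 of 13 pigment and 12 of 14 hepatocyte markers. Of these, 4 neuron markers and 1 lens marker were higher without overlap, and 4 pigment and 3 hepatocyte markers lower. Negative values stood in 11 of 18 muscle, 5 of 17 proliferation and 9 of 15 exocrine markers. Of all tested genes 7.69% were higher and 9.08% lower without overlap at 48 hpf. At 72 hpf, where 0.133% of all tested genes were higher and 0.422% lower, 1 pigment marker of 13 was lower. Pigment sums ran from 725 to 757 CPM in wild type and from 619 to 713 CPM in mutant-labelled libraries. Values were negative in 10 of 13 pigment markers, with 3 lower without overlap. Of 17 proliferation markers 1 was higher and 1 lower, both under the symbol rrm2. No marker of the muscle, hepatocyte, neuron or exocrine lists was called. Summed muscle markers there ran from 39108 to 44851 CPM in wild type and from 47813 to 58645 CPM in mutant-labelled libraries, with positive values in 17 of 18 and 6 higher without overlap. Hepatocyte sums ran from 3170 to 4510 and from 4167 to 5012 CPM, with 7 of 14 higher without overlap. Neuron sums ran from 3433 to 3684 and from 3723 to 3839 CPM, with positive values in 14 of 16 and 4 higher without overlap. Exocrine sums ran from 516 to 683 and from 386 to 519 CPM, with negative values in 15 of 15 and 2 lower without overlap. Of all tested genes 11% were higher and 9.14% lower without overlap at 72 hpf. Shares of all genes with positive or negative values are not given here, so the sign counts have no background. The part of these cell types in the factor genes' differences was not tested.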

How the data were processed

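The authors deposited raw read counts for each Ensembl gene, with its symbol, and without normalization. STAR, featureCounts, DESeq2 and the build GRCz11 are named, without versions, in the submitters' processing notes. The sources used here do not give strand use, annotation release or the treatment of reads that match several genes, so near-identical or overlapping genes are uncertain. Total RNA was extracted with TRIzol, per the labels' protocols.

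filterByExpr at a minimum count of 10 kept 21068 of 31465 genes. A quasi-likelihood model of the 4 groups was fitted to all 12 libraries with TMM scaling (R 4.3.3, edgeR 4.0.16). Contrasts were genotype at each age, their difference, and age in each genotype. Benjamini-Hochberg adjustment ran over every tested gene, and calls were made under 0.05. CPM values are TMM-scaled and log2 fold changes are those of the model. The calling steps were also run on simulated counts with the same spread for every gene and group. Replicates of the real groups differed in spread, so that run does not give the error rates of these data.

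Alternatives were DESeq2 1.42.0, limma-voom (limma 3.58.1), DESeq2 size factors, library totals, no filter, a replicate block, only the 6 libraries compared, and each library left out (19 for the 48 hpf contrast). Members and lists were chosen with earlier results of these data known. The text names genes called for genotype, their paralogs, the gene of highest mean CPM in each role, and the 6 largest rises and 6 largest falls with age. Others, such as eef1b2, eif3f, eif4e1c and the eIF4E genes, were named after their values were seen. No replicate pair agreed within sampling noise (chi-square per degree of freedom 4.14 to 49.7). Message lengths, and promoter and protein sequences, were not used here, so different genes are set side by side only by their counts, not by levels per length.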

Additional observations from a re-analysis of the deposited data

How the results depend on the processing

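The count of factor genes changed at 48 hpf, 10 with TMM and edgeR, was 19 with DESeq2 and 0 with only the 6 libraries compared, and ran from 2 to 12 when each library was left out. At 72 hpf it was 0, and 3 with only the 6 libraries compared, with 0 in every fit that left out a library. For the difference between ages it was 0, and 0 to 1 when each library was left out. The counts with age ran from 45 to 50 in wild type and from 41 to 48 in mutant-labelled libraries. Shares of all genes called are not given here for fits that left out a library, so their counts have no background. With library totals the median log2 fold change of the factor genes turned to 0.0379 at 48 hpf, to -0.0430 for the difference between ages, and to 0.115 and 0.0789 with age in wild type and mutant-labelled libraries, while the median of all genes moved with it. When each library was left out these medians ran from -0.128 to -0.0179 at 48 hpf, from -0.0877 to -0.0405 at 72 hpf, from -0.0145 to 0.114 for the difference, and from -0.331 to -0.273 and from -0.334 to -0.183 with age. At 72 hpf, values near 0 changed sign: eif3eb, 0.01 at first, was -0.0062 with library totals, -0.0014 with only the 6 libraries compared, and ran from -0.0822 to 0.0946 when libraries were left out. In the same way eif2b5 ran from -0.116 to 0.0030 and eif4a1a from -0.0352 to 0.0707. The cause was not tested.

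Replicate numbers are not stated to pair the samples, and no pairing was seen: deviations of same-numbered libraries correlated between -0.203 and 0.0290. With 3 libraries a group, this check could miss a shared clutch or batch. With the replicate number as a block, 8 factor genes were called at 48 hpf, 0 at 72 hpf and 0 for the difference, and 48 changed with age in each genotype. Shares of all genes called with the block are not given here. Depth limits the genes with few counts, eif4e1b, eef1a2, eif3bb and eef2a.2.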
